A study of Mus musculus with 1111 samples.

Results

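Microglia without plasma signal were the cells of this series whose label gives a plasma intensity of none. Each labelled cell was tied to its count column through the well and the TH number in its title, and was kept when it had 50000 or more reads in genes and 500 or more genes with a read. Of the cells with this label, 370 had a matched column and 14 had none. All but 24 of these 370 (93.5%) passed, which is 35.1% of the 987 passing cells in the whole series. The labels name the tissue as brain and the cell type as microglia, and the mice were 3 months old. All 3 groups of cells came from animals given plasma proteins tagged with the dye NHS-Atto647N 20 hours before isolation. The other 641 passing cells are labelled low (35.6% of all passing cells) and high (29.4%), and cells of uninjected animals were not used here. Strain, sex and the number of mice are not named in the labels used here, and each library is 1 cell made by the full-length method Smart-seq2. The TH number, from 1 to 3, marks 3 sets of wells whose meaning is not stated. No label ties a cell to an animal, so the group counts as 1 sample, no test is given, and every error below is an SD over the 3 TH numbers (n = 3) unless another is named.

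Microglia are the resident macrophages of the brain. In the healthy adult they keep a set of genes called homeostatic, which includes purinergic and chemokine receptors and the receptor for the growth factor CSF1 on which they depend. They make the C1q proteins that start the classical complement cascade, and they hold abundant lysosomal proteases that digest what they take up. Under damage or disease they can switch on other sets of genes, such as the disease-associated and interferon-responsive sets.

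The passing cells held 80757827 reads in genes, with 21309816, 32498895 and 26949116 in TH 1, 2 and 3, which held 33.5%, 32.7% and 33.8% of the cells. The median cell had 217146 ± 53263 reads and 1696 ± 56.4 genes, or 1530 ± 76.7 genes when each cell was thinned to 50000 reads. All 24 cells that failed had too few reads, and 6 of them also had too few genes. The best-covered failed cell had 47829 reads and the shallowest kept cell 50098. The none cells stood in plate columns 1 to 8 of every TH number, low cells in 9 to 16 and high cells in 17 to 23, so plate position and group cannot be told apart. Per the file headers, the column names of TH 2 and TH 3 mention top hits only and those of TH 1 do not.

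The label of the cell type was checked against 4 markers. Tmem119, a membrane protein of microglia, had 5047, 4797 and 4686 CPM (a gene's reads scaled to a fixed total of reads in all genes) in TH 1, 2 and 3. P2ry12, an ADP receptor, had 9320, 9988 and 8603 CPM. Cx3cr1, the fractalkine receptor, had 6978, 8421 and 8222 CPM, and Csf1r, the CSF1 receptor, had 4919, 5939 and 6556 CPM. All 4 markers had a read in 99.1% of cells, and each of the 3 remaining cells lacked a single marker. Markers of other cell types were low in sum. Border-associated macrophage markers summed to 0.664 ± 0.595 CPM, between 0.217 and 1.34 over TH numbers, and 6 of 8 had no read (Cd163, Lyve1, Pf4, F13a1, Ms4a7 and Siglec1). Monocyte markers summed to 7.49 ± 8.93 CPM with 4 of 8 at 0, and neuron markers to 0.238 ± 0.354 CPM with 5 of 8 at 0. The neutrophil list reached 362.4 ± 65.3 CPM through Csf3r alone, with 7 of 8 members at 0, and the lymphocyte list 35.5 ± 0.382 CPM through Cd79b alone. The astrocyte list summed to 329.2 ± 91.3 CPM, nearly all of it Slc1a3, with Gfap, Gja1 and Aldh1l1 at 0. The oligodendrocyte list summed to 159.4 ± 47.7 CPM, most of it Cnp. The endothelial list summed to 51.4 ± 4.27 CPM with Cldn5, Ly6c1, Itm2a and Tie1 at 0. In 3 cells (0.867%), at least 3 markers of 1 other type each reached 10 CPM; these were oligodendrocyte markers in 2 cells and red cell markers in 1.

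The sequences upstream of 4 genes are shown because these genes formed the 3 named pairs with the highest correlation from cell to cell, described further on. They are Cst3, which encodes the protease inhibitor cystatin C; C1qb and C1qc, which encode chains of C1q; and Ctss, which encodes the lysosomal protease cathepsin S. Each is taken from the 250 bases before the RefSeq start (GRCm38.p6) and is cut where a GENCODE M21 transcript of the gene begins. The strand shown is that of the gene. Capitals mark GAGGAA or its reverse complement TTCCTC, a core that the myeloid factor PU.1 and other ETS factors are known to bind.
Cst3, chr2:148875693-148875762, minus strand: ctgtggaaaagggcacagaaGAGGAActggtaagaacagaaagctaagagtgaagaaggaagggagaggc
C1qb, chr4:136886201-136886450, minus strand: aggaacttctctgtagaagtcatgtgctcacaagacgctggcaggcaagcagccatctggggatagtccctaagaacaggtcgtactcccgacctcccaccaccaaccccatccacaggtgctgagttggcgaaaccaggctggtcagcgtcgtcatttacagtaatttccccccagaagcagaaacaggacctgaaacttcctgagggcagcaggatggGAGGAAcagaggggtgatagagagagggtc
C1qc, chr4:136893066-136893164, minus strand: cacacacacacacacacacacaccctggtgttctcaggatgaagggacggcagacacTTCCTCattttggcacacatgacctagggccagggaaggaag
Ctss, chr3:95526536-95526785, plus strand: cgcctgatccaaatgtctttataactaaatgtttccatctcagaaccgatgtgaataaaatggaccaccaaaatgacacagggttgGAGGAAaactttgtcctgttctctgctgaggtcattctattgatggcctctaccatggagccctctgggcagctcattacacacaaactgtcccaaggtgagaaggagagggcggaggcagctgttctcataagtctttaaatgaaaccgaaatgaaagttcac
Each of the 4 windows of 250 bases held 1 match, counting both strands. The motif stood in 23.3% of the 32851 windows of the same length in the RefSeq table, so a match is common and is a description of the letters only. Spi1, which encodes PU.1, had 469, 401 and 416 CPM in TH 1, 2 and 3 and a read in 73.1% of the cells.

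The most abundant messages were those of cystatin C, lysosomal enzymes, C1q and microglial receptors. Cst3 stood first both in CPM and per length, with 23989, 16260 and 18968 CPM in TH 1, 2 and 3. Divided by its exon length, Cst3 reached 15592 ± 3098 CPM per kb. In single cells its level ran from 2497 CPM through a median of 18444 to 93027, and no cell lacked it.

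Among the other genes described here, the highest per length were C1qb with 5214 ± 739, Ctss with 5027 ± 352.1 and Ctsd, the protease cathepsin D, with 4653 ± 370 CPM per kb. These 3 neighbours lay within about 1 SD of each other, so their order is not settled by these data. P2ry12 followed with 3654 ± 271.9, the actin gene Actb with 3036 ± 457, and Lgmn, the lysosomal protease legumain, with 2871 ± 300.7 CPM per kb. C1qa had 2847 ± 136.6 CPM per kb, Tmsb4x, which binds actin monomers, had 2449 ± 717, and B2m, the light chain of MHC class I, had 2358 ± 247.9. Actb, Lgmn and C1qa lay within 1 SD of each other, as did Tmsb4x and B2m. The last of the 15 highest per length were Gpr34, a lysophospholipid receptor, C1qc, Tmem119 and Itm2b, between 1828 and 2209 CPM per kb. Malat1, a long nuclear RNA, was among the 3 highest in CPM (14227, 7480 and 12412 in TH 1, 2 and 3) but not among the 15 highest per length. The 20 highest genes held 15.5% of all CPM.

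**Figure D1:**
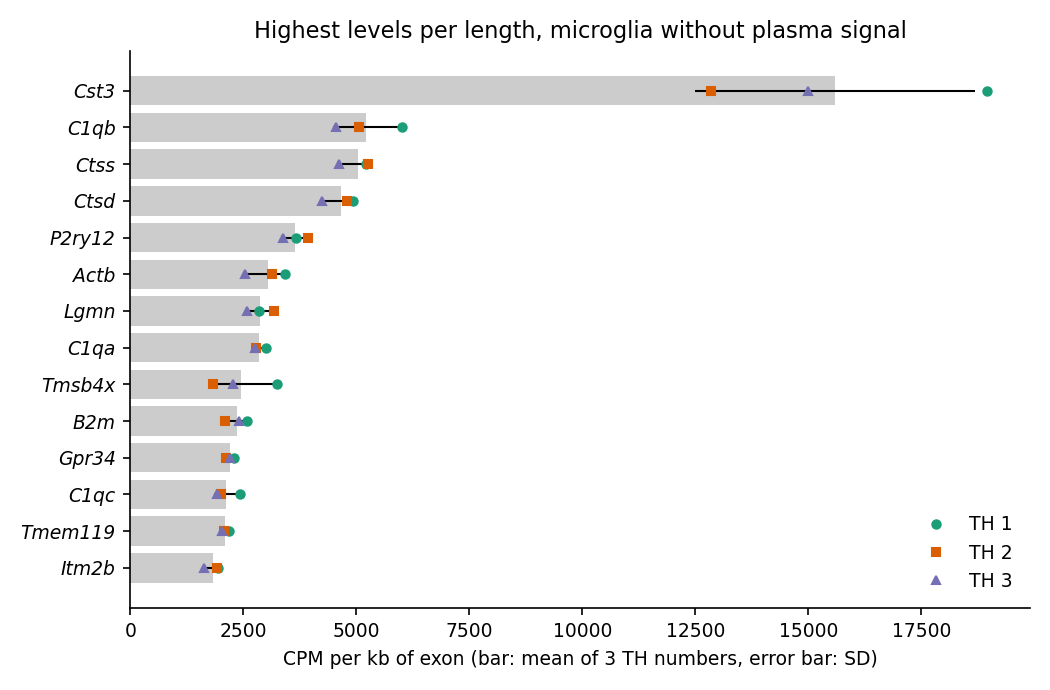
Levels of 14 genes among the 15 with the highest CPM per kb of exon in microglia without plasma signal; bars are means over 3 TH numbers, error bars SD, and points single TH numbers. Cst3 stands at 15592 CPM per kb, and the 13 others shown lie between 1828 and 5214.

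Levels held between sets of wells for many but not all genes. Of 797 genes with at least 200 CPM, 91 (11.4%) differed more than 2-fold between the highest and the lowest TH number. For 47 of these the highest value was in TH 2, for 33 in TH 3 and for 11 in TH 1. Some genes lie over abundant ones and share their reads, such as Gm49369 with Ctsd and Gm37376 with Malat1. Whether the counting used strand is not given in the sources used here, so reads of such overlapping genes cannot be told apart.

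Detection separated a small common core from a long tail. A read was found for 15607 genes in at least 1 cell. Only 68 of these (0.436%) were found in 90% or more of the cells within every TH number, and 19 were found in all cells. These 68 genes held 23.8% of all CPM, and 37 of them overlap no other gene of 1 CPM or more. They included 14 of the 18 genes of the homeostatic list, 7 predicted genes, 1 ribosomal protein gene and no mitochondrial gene. At the level of 50% of cells the count was 487 (3.12%). At the other end 10409 genes (66.7%) had a read in fewer than 10% of the cells, and 1907 had reads in a single cell.

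The lists of known genes differed widely in how many cells held a read. In the homeostatic list the median member was detected in 98.7% of cells, in the cathepsin and cystatin list in 97.1%, in the actin list in 60.4% and in the lysosome list in 57.1%. Among transcription factors of microglia the median was 56.1%. Bhlhe41, a repressor of this cell type, was found in 84.7% of cells (95% Clopper-Pearson interval 80.4% to 88.3%, which like all such intervals here covers counting error only). Irf8 was found in 77.7%, Mef2c in 77.7% and Sall1, a zinc finger factor of microglia, in 58.4%. In the Trem2 signalling list, the receptor Trem2 and its adaptor Tyrobp were each found in 94.2% of cells and the Fc receptor chain Fcer1g in 94.8%. In the complement list C1qa, C1qb and C1qc were found in every cell, while C3 and Vsig4 had no read.

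Many genes of activated states were seen in few cells. The median member of the disease-associated list was found in 21.97% of cells, but 5 of its 21 measured members reached 90% of cells within every TH number (Ctsb, Ctsd, Ctsz, Fth1 and B2m). Spp1, Gpnmb, Igf1 and Lgals3 of the same list had no read in any cell, which allows a share of up to 0.867% of cells with a read. Apoe, a lipid carrier, was found in 6.90%, 8.85% and 8.55% of the cells of TH 1, 2 and 3, with 47.4% of its reads in 1 cell. Lpl, a lipase, was found in 0%, 4.42% and 9.40%, and Axl, a receptor for dying cells, in 1.72%, 0.885% and 1.71%.

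The interferon list had a median detection of 1.73%, with 16 of 19 measured members under 10% of cells. The viral restriction factor Trim30a was found in 19.1% of cells and the tetherin gene Bst2 in 17.3%. The cytokine and chemokine list had a median of 4.62%, with Nfkbia, an inhibitor of NF-kB, at 36.99%, Ccl6 at 33.2%, Il1a at 23.99% and Tnf at 0.867%. Of 23 immediate early and dissociation genes, 14 were under 10% of cells and Fosb, Egr1, Egr2, Egr3, Hspa1a and Hspa1b had no read. Fos had reads in 1 cell, while Rhob, Btg2, Junb and Jun were found in 83.2%, 50.6%, 43.6% and 25.1%. All 16 proliferation genes were under 10%, and Mki67, Top2a, Ccnb1, Cdk1, Rrm2 and Birc5 had no read. Among genes of endocytosis and receptors of plasma proteins the median was 9.54%. The multiligand receptor Lrp1 was the one most often seen among receptors named here, at 58.7% of cells, with Stab1 at 38.2% and the albumin and IgG receptor Fcgrt at 23.4%. The transferrin receptor gene Tfrc was at 2.02%, and Vldlr, Cd36, Cd163 and Cav1 had no read.

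**Figure D2:**
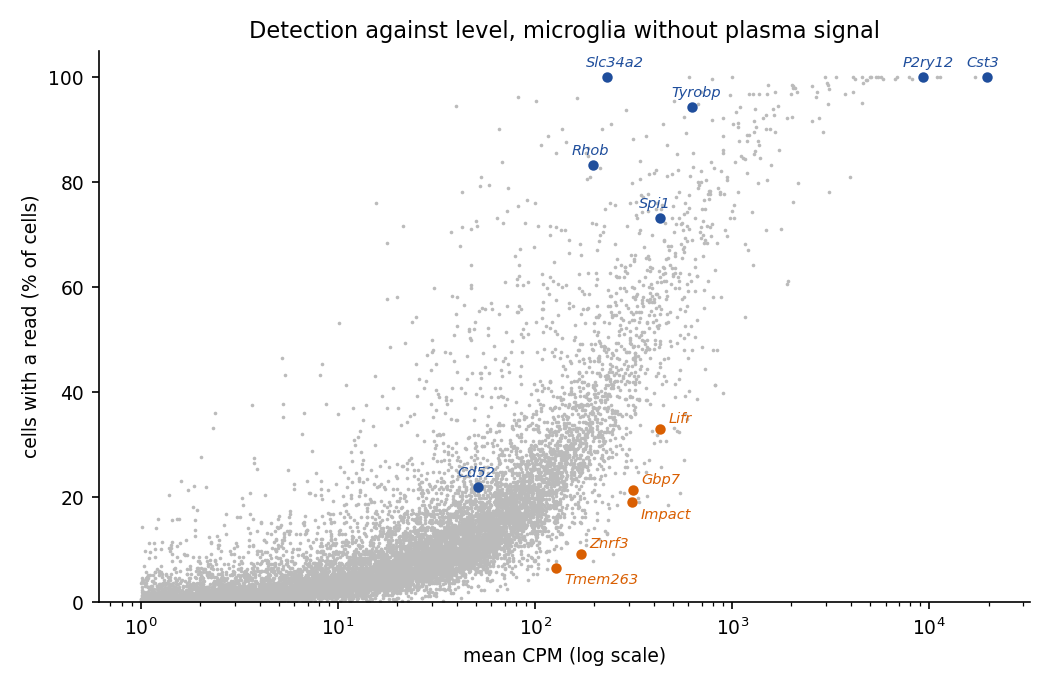
Share of cells with a read against mean CPM (log scale) for genes of at least 1 CPM in microglia without plasma signal, each point 1 gene. Slc34a2 was found in every cell at 230.6 CPM, while Znrf3 at 170.6 CPM was found in 9.25% of cells.

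Level and detection did not go together for every gene. Among genes found in fewer than 10% of cells, the highest level belonged to Znrf3, a ubiquitin ligase that acts on Wnt receptors. It had 200.7, 133.7 and 177.5 CPM in TH 1, 2 and 3 but reads in 32 cells only (9.25%, interval 6.41% to 12.8%), and in those cells its median was 1462 CPM. Tmem263 showed the same form, with 127.3 ± 71.6 CPM, reads in 23 cells (6.65%) and a median of 1690 CPM in them. The other 6 genes of this kind were Ppm1k, a phosphatase of branched-chain amino acid breakdown, with 127.5 ± 74.3 CPM, Cdv3 with 117.6 ± 59.4, Mier3 with 116.7 ± 66.9, Zfp945 with 114.3 ± 23.4, Mppe1 with 113.4 ± 95.5 and Cass4 with 105.4 ± 49.1, found in between 7.80% and 9.83% of cells. The opposite form was shown by Slc34a2, a phosphate transporter, with 328.1, 93.4 and 270.5 CPM and a read in every cell, from 23.3 CPM in the lowest to 1270 in the highest.

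Detection was set beside the other groups at an equal 50000 reads per cell. Of 5775 genes found in 10% or more of the cells of a group, 2.7% were found less often in none cells than in both low and high cells. The rule asked for at least 10 percentage points on the mean and the same sign in each TH number. No gene (0.0%) was found more often in none cells by the same rule. Over all these genes the median difference was −3.02 points against low and −2.59 against high, and no test between groups is given. The none cells also had fewer genes per cell at this depth, 1530 ± 76.7 against 1816 ± 195.005 in low and 1744 ± 121.1 in high cells. The part of this lower gene number in the differences of single genes was not tested.

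By this rule 30 of 79 ribosomal protein genes and 5 of 8 mitochondrial genes were found less often in none cells, beside 2.7% over all genes. Of 18 homeostatic genes, 0 were among them, which is near that share, and detection was close to its ceiling, with medians of 98.4% in none, 98.1% in low and 97.9% in high cells. The median ribosomal protein gene was found in 53.7% of none, 62.7% of low and 67.5% of high cells. Among genes named here after their values were seen, Npc2, a carrier of lysosomal cholesterol, was found in 59.5%, 53.1% and 52.99% of none cells in TH 1, 2 and 3. Its mean of 55.2% ± 3.72 stood beside 74.9% ± 6.10 in low and 77.9% ± 5.30 in high cells. The lysozyme gene Lyz2 was found in 34.5%, 30.97% and 26.5% of none cells, a mean of 30.7% ± 4.003 beside 43.3% ± 0.833 and 56.9% ± 2.01. The surface protein gene Cd52 stood at 21.6% ± 4.47 beside 35.6% ± 3.71 and 44.7% ± 4.97. H2-D1, a heavy chain of MHC class I, was at 68.996% ± 6.88 beside 84.03% ± 2.84 and 87.5% ± 4.06, and the peroxidase gene Gpx1 at 48.3% ± 1.13 beside 65.8% ± 3.23 and 69.1% ± 6.94. The respiratory chain gene mt-Nd2 was at 64.7% ± 1.79 beside 85.7% ± 2.64 and 82.8% ± 1.42. Apoe was outside the rule against low cells, with 8.10% ± 1.05 in none, 15.1% ± 1.68 in low and 26.97% ± 2.82 in high cells. Of the genes found less often, 90.4% also had a lower mean CPM in none cells than in both other groups. Detection and CPM come from the same reads, and the share over all tested genes is not given here. Npc2 had 354.3, 427.8 and 521.9 CPM in none, low and high cells, Lyz2 244.8, 332.3 and 505 CPM, and H2-D1 710, 1010 and 1408 CPM. Rps25 was an exception, with 323.4, 321.1 and 320.6 CPM and a detection of 75.4%, 86.04% and 86.1%.

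Cell-to-cell variation was measured as the CV of CPM over the cells of a TH number, divided by the median CV of the genes nearest to it in mean level, which gives a CV ratio. Of 3123 genes with at least 50 CPM and a read in at least 10% of cells of each TH number, 7.72% counted as variable, with a CV at least 25% above that of these neighbours in each TH number. Another 7.97% counted as steady, with a ratio of at most 0.8 in each. For the 50 highest genes, down to 1895 CPM, the neighbours lie mostly below the gene, which lowers the ratio. Of these 50, 22 were steady and 3 variable. Without TH 1 the share of variable genes was 11.5%. Among the 1822 of these genes that overlap no other gene of 1 CPM or more, 7.14% were variable and 6.81% steady.

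The genes of at least 200 CPM with the highest ratios did not belong to the lists above. Impact, a regulator of the translation kinase GCN2, had ratios of 2.66, 1.95 and 2.85 in TH 1, 2 and 3, a CV of 4.05 ± 0.517 and a read in 19.1% of cells. Lifr, the receptor for leukemia inhibitory factor, had a ratio of 2.11 ± 0.181 and was found in 32.9% of cells. Gbp7, an interferon-induced GTPase, had 1.98 ± 0.198 and was found in 21.4%. Ankrd13c (2.21 ± 0.532), R3hdm1 (2.19 ± 0.781), Zfp317 (1.99 ± 0.193), Atxn1 (1.90 ± 0.184) and Nmt2, a myristoyl transferase (1.90 ± 0.0670), completed the 8 highest. Where Zfp317 had reads the median cell had 1426 CPM, and where Nmt2 had reads, 1376 CPM, while most cells had none. The median variable gene was found in 21.4% of cells and had 7458 bases of exon, against 25.4% and 4652 bases over all genes with a ratio.

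The steady genes were shorter and more often detected, with a median of 2311 bases and 56.4% of cells. Slc34a2 had the lowest ratio among genes of at least 200 CPM, 0.369, 0.240 and 0.271 in TH 1, 2 and 3. Among the other steady genes of this level, the ubiquitin gene Ubb had 0.404 ± 0.121. Ppia, a prolyl isomerase, had 0.442 ± 0.0332, Actb 0.480 ± 0.0776 and Cyba, a subunit of the NADPH oxidase, 0.483 ± 0.0436. Ubb and Ppia have many near-identical copies in the genome, so their reads may be split in ways the sources used here do not describe. Ribosomal protein genes were steady in 46 of 60 cases and variable in 0, beside 7.97% and 7.72% over all genes with a ratio.

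By list, the homeostatic genes were steady in 8 of 18 cases and variable in 0, beside 7.97% and 7.72% over all genes. The steady members included Tmem119, P2ry12, Cx3cr1, Csf1r, Selplg, Sparc and Cst3, and all 8 lie among the 50 highest genes, whose ratio is lowered as said above. C1qa, C1qb and C1qc were steady among 8 complement genes, with CVs of 0.395 ± 0.00923, 0.406 ± 0.00805 and 0.430 ± 0.0495. Among 16 actin genes 7 were steady, and among 11 cathepsin and cystatin genes 4 were (Ctsd, Ctss, Cst3 and Lgmn). Of the steady genes in these lists, at least C1qb, C1qc and Ctss, with 5673, 4083 and 6827 CPM, also lie among the 50 highest, whose ratio is lowered. Few list members were variable: Sall3 of 13 transcription factors (ratio 1.55 ± 0.166), the phosphatase Ptprc of 13 Trem2 and Fc receptor genes (1.35 ± 0.0736), Btg2 of 8 immediate early genes (1.40 ± 0.124), Trim30a, the 1 interferon gene with a ratio (1.73 ± 0.0683), and Snhg6 of 5 nuclear long RNAs (1.69 ± 0.145). Among zinc finger genes named Zfp, a group picked after the values were seen, 7 of 32 were variable (21.9%, beside 7.72% over all genes). Rhob, an immediate early gene, was steady instead, at 0.518 ± 0.0869.

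The same genes were then read in the other groups, which had not chosen them. Of the variable genes with a ratio in low cells, 98.2% had a mean ratio over 1 and 56.8% were variable again, beside 7.02% variable over all genes with a ratio there. In high cells the shares were 98.1% and 47.1%, beside 5.65%. Of the steady genes, 99.6% had a mean ratio under 1 in low cells and 99.2% in high cells, and 73.4% and 65.99% were steady again, beside 8.34% and 7.58% over all genes. Impact had 1.66 in low and 1.86 in high cells, Lifr 1.80 and 1.81, and Slc34a2 0.407 and 0.654.

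**Figure D3:**
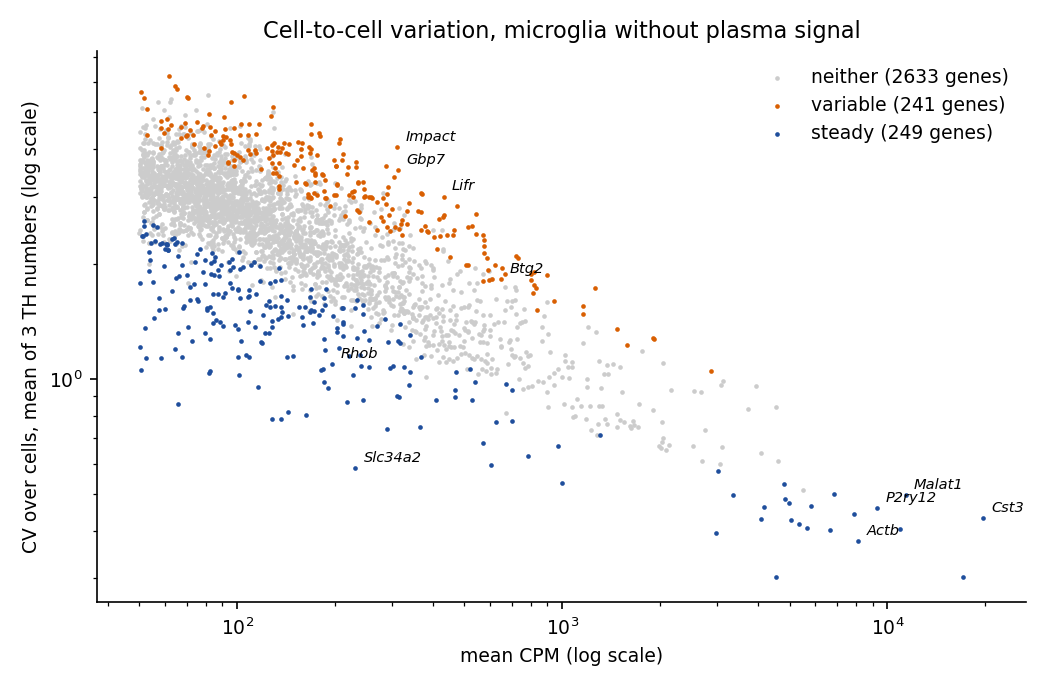
CV over cells against mean CPM, both on log scales, for 3123 genes in microglia without plasma signal; orange points are the variable genes (7.72%) and blue points the steady genes (7.97%). Impact has a CV of 4.05 and Slc34a2 one of 0.583.

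Most genes did not vary together. Pairs were formed among the 487 genes found in at least 50% of cells of each TH number, and Spearman's rho of CPM was taken over the cells of a TH number. The cells of a TH number share its set of wells and differ in depth, and CPM ties genes of a cell to 1 total. Over 118285 pairs of genes that do not overlap, the median of the mean rho was 0.00864, and 90.7% of pairs lay within 0.1 of 0. Only 5 pairs (0.00423%) reached 0.3 in each TH number, and none (0.0%) reached −0.3; leaving out TH 1, 2 or 3 gave 11, 10 and 8 pairs. Of the 5, Gm12166 with Sft2d1 (0.735 ± 0.0566) and with Gm49987 (0.655 ± 0.0485) involve shared sequence: 91.8% of the 31-base words of Gm12166 occur in Sft2d1 transcripts, and Gm49987 overlaps Sft2d1. These were picked out after their values were seen.

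The other 3 pairs joined Cst3, C1qb, C1qc and Ctss, whose upstream sequences are given above. Cst3 and C1qb had rho of 0.392, 0.525 and 0.487 in TH 1, 2 and 3, and a mean of 0.493 ± 0.0645 in low and 0.538 ± 0.208 in high cells. C1qb and C1qc, which lie near each other on chromosome 4, had 0.408, 0.362 and 0.386, beside 0.334 ± 0.144 and 0.448 ± 0.0803. Cst3 and Ctss, an inhibitor and a protease of the family it inhibits, had 0.313, 0.387 and 0.417, beside 0.439 ± 0.129 and 0.450 ± 0.0611. Cells high in one gene of a pair thus tended to be high in the other in every set of wells and in all 3 groups. The third C1q gene had rho of 0.308 ± 0.0718 with C1qb and 0.320 ± 0.0414 with C1qc.

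**Figure D4:**
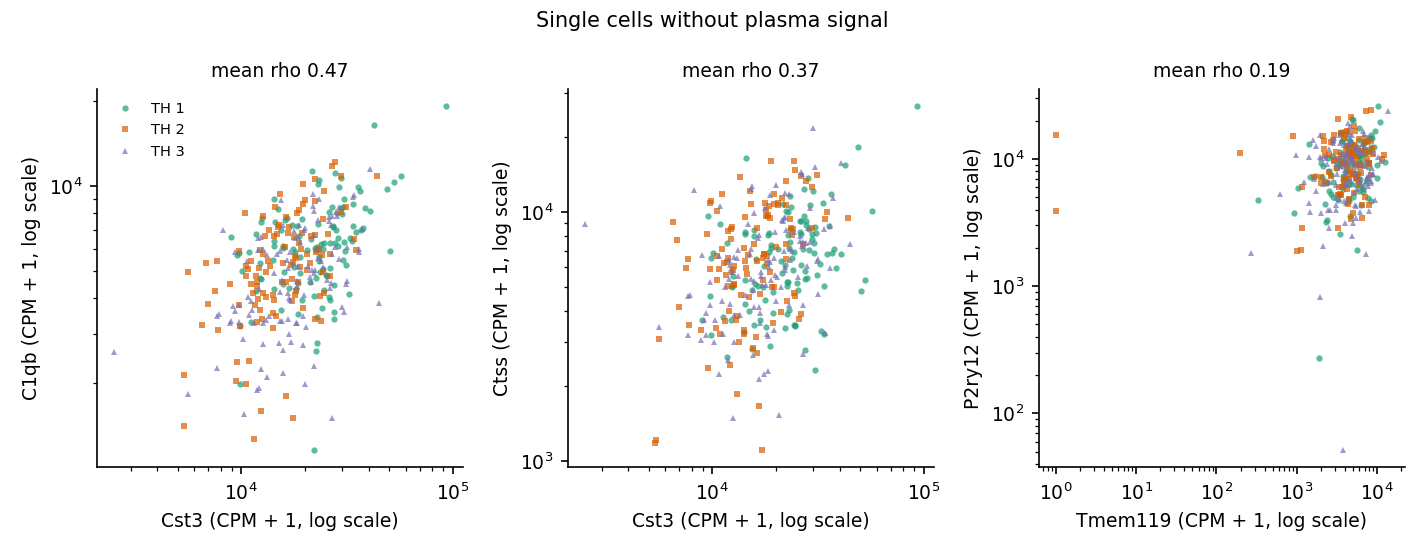
Levels in single cells without plasma signal (CPM + 1, log scales), colored by TH number, for Cst3 with C1qb, Cst3 with Ctss, and Tmem119 with P2ry12. The mean rho is 0.468, 0.372 and 0.186.

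The mean rho of marker pairs was lower than that of these 3 pairs, though for Tmem119 with P2ry12 (0.186) and Csf1r with Cx3cr1 (0.230) it was above the 99th percentile of all pairs, 0.148. Tmem119 and P2ry12 had rho of 0.339, 0.117 and 0.102 in TH 1, 2 and 3, Csf1r and Cx3cr1 had 0.302, 0.365 and 0.0213, and Cx3cr1 and P2ry12 had 0.189, 0.0863 and −0.0267. The sets of wells thus spread widely for each of these 3 pairs, and for the last they differed in sign. The receptor Trem2 and its adaptor Tyrobp had 0.0199, 0.218 and 0.0367, and the 2 integrin chains of complement receptor 3, Itgam and Itgb2, had −0.0877, 0.0893 and −0.00198. Fcer1g and Tyrobp had 0.0318 ± 0.147 in none cells beside 0.228 ± 0.108 in low and 0.256 ± 0.121 in high cells. Fth1 and Ftl1, the chains of ferritin, had 0.178 ± 0.0450, and the MHC class I genes H2-K1 and H2-D1 had 0.179 ± 0.0671, though these similar genes could share reads.

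With the lower limit of 0.2 in each TH number, chosen after the data were seen, 41 pairs (0.0347%) counted. Of the 33 further pairs without predicted genes, 6 held Cst3, 8 held a C1q gene and 7 joined mitochondrial genes. Cst3 had 0.335 ± 0.0565 with Itm2b, 0.309 ± 0.0945 with Sparc, a matrix protein gene, 0.302 ± 0.105 with Tyrobp and 0.293 ± 0.0763 with Tmsb4x. Among cathepsins, rho was 0.274 ± 0.0832 for Ctsz and Ctsd and 0.266 ± 0.0403 for Ctsa and Ctsd, but the mean for Ctsa and Ctsz was 0.0814. Over 20 pairs of mitochondrial genes the median was 0.242, from 0.166 to 0.309, beside medians of 0.260 in low and 0.2501 in high cells. Over 1378 pairs of ribosomal protein genes it was 0.0491, beside 0.0799 and 0.112. At the limit of 0.3, low cells had 8 and high cells 21 of the same 118285 pairs. At 50000 reads per cell the none, low and high cells had 4, 7 and 15. All these pairs came from genes that passed the minimum of 50% in none cells at full depth. High cells were fewer in each TH number. The 99th percentile of rho over all pairs in TH 1, 2 and 3 was 0.234, 0.234 and 0.237 in none cells. It was 0.257, 0.245 and 0.243 in low cells and 0.272, 0.291 and 0.276 in high cells.

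Of the 41 pairs, 30 had a mean rho of at least 0.2 in both other groups and 3 had one under 0.1 in both. Over all pairs, the 99th percentile of the mean rho was 0.167 in low and 0.194 in high cells. The 41 include pairs of genes that share sequence or reads with others, such as those of Gm12166, Gm49369 and Gm37376. All 41 were selected on their values in none cells, so the comparison is a description only. Slc39a1 and Coro1a had 0.253, 0.240 and 0.225 in none cells beside −0.0220 ± 0.0360 in low and 0.0902 ± 0.103 in high cells. Efhd2 and Entpd1 had 0.235 ± 0.0173 beside 0.0471 ± 0.127 and 0.0429 ± 0.130, and Itgam and Rps26 had 0.242 ± 0.0325 beside 0.0420 ± 0.167 and 0.0289 ± 0.128. In the opposite direction 3 pairs (0.00254%) reached −0.2 in each TH number: Cmtm6 with Malat1 (−0.261 ± 0.0572), Slc34a2 with mt-Nd5 (−0.249 ± 0.0283) and Rgs2, a regulator of G protein signalling, with Cd14 (−0.233 ± 0.0303). In low and high cells the first had −0.245 ± 0.147 and −0.120 ± 0.130, the second −0.00945 ± 0.0695 and −0.0646 ± 0.154, and the last 0.0282 ± 0.119 and −0.0827 ± 0.0675. Given reads and genes per cell, the partial rho in none cells was −0.186 for Cmtm6 with Malat1, −0.160 for Slc34a2 with mt-Nd5 and −0.232 for Rgs2 with Cd14. Differences of these values between groups were not tested.

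**Figure D5:**
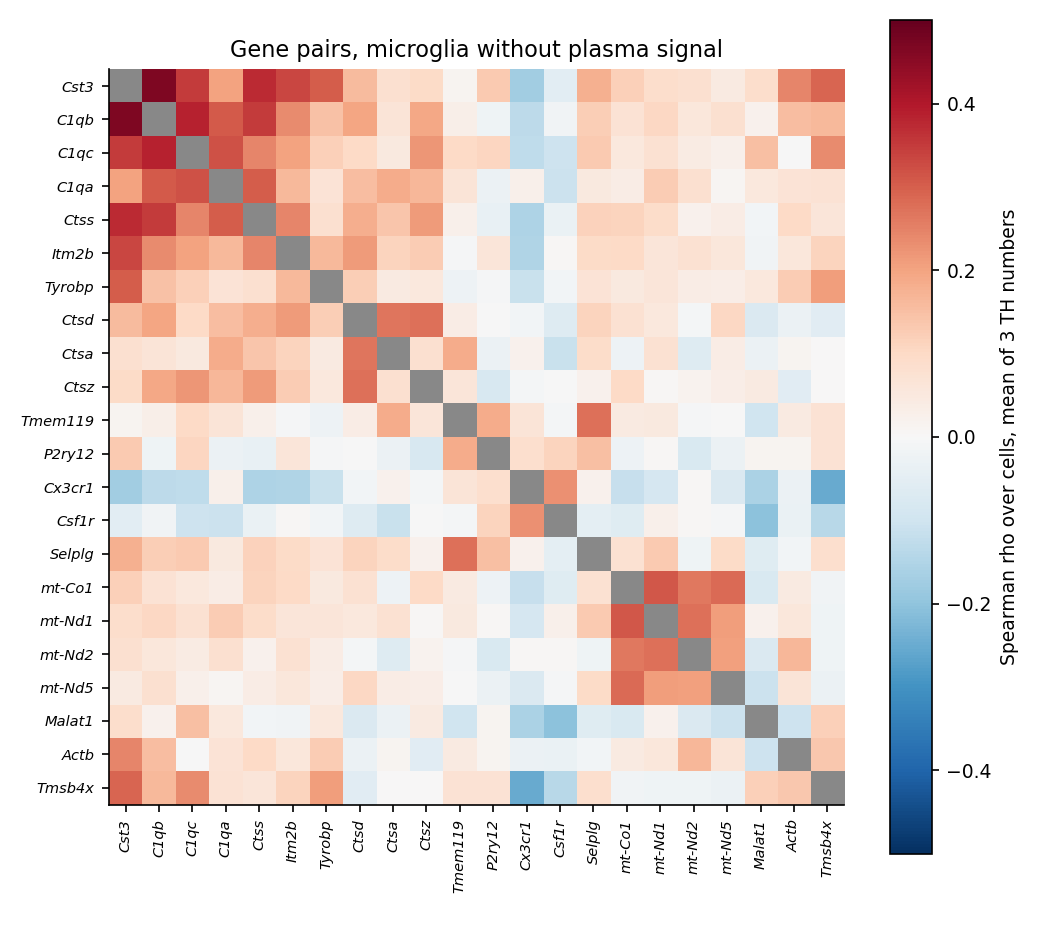
Spearman's rho over cells without plasma signal, mean of 3 TH numbers, for pairs of 22 genes chosen after their values were seen; red is positive, blue negative and the diagonal grey. The red block joins Cst3, C1qb, C1qc, C1qa and Ctss, and Cst3 has −0.172 with Cx3cr1.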

How the data were processed

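Single microglia from mouse brain were profiled by Smart-seq2, and the authors deposited 1 count per gene and cell in a table for each TH number; 35583 genes are listed. All but 1 column hold whole-number read counts, as deposited. For 1 column of TH 3 the authors deposited expected count values, since 2 of them are not whole. How these were estimated is not given, and they were rounded. The submitters' processing notes name bcl2fastq, Trim Galore, STAR 2.5.3a, Seurat and the mm10 build; how reads were assigned to genes, and with or without strand, is not given in the sources used here. A further 1045 columns of per-cell values were not used, and 66 labelled cells without a matched column were not analysed here.

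Cells passed with 50000 reads in genes and 500 genes. Sums per group and TH number were scaled to CPM with TMM factors (edgeR 4.0.16, R 4.3.3); CVs and correlations used plain CPM per cell (Python 3.11.15, scipy 1.17.1). Exon lengths came from GENCODE M21, in which 35546 IDs were found. Each library is labelled as 1 cell, and no doublet caller was run. Named genes, without predicted ones, were the 15 highest in CPM and in CPM per kb, the 8 most variable and 8 steadiest of at least 200 CPM, the 8 of highest CPM found in under 10% of cells, the counted pairs and 22 preset pairs, and from 26 gene lists the members highest per kb, in detection, in CV ratio and in detection difference from the other groups. Further list members and pairs were named after their values were seen. Some genes that these rules name are not reported here. The members, lists and rules were chosen with earlier results of these data known. No p-value is given, since no label names an animal. The scripts were tested on simulated data. Alternatives left out each TH number or cells with markers of another type, raised the cell filter to 100000 reads and 1000 genes, thinned cells to 50000 reads, and changed the scaling, the weight of cells, the detection minimum and the correlation measure; leaving out overlapping genes and a lower limit on rho were added after the data were seen.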

Additional observations from a re-analysis of the deposited data

How the results depend on the processing

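No paired analysis was possible because the replicate numbers only name single cells in accession order and no label names an animal. This limit concerns pairs of cells or of animals only. Pairing by TH number was open, since every TH number holds none, low and high cells. The detection rule compared the groups within each TH number, but no test between groups is given. Leaving out 1 TH number gave 10.28% to 11.5% variable genes in place of 7.72%, the highest without TH 1, and 9.37% to 10.3% steady genes in place of 7.97%. It gave 71 to 75 genes in at least 90% of cells in place of 68, 8 to 11 co-varying pairs in place of 5 and 0 to 1 opposing pairs; fewer sets of wells then have to meet the limit. Thinned to 50000 reads, the median genes per cell were 1530. With the detection minimum applied again at this depth 3 pairs co-varied, beside 4 among the genes chosen at full depth. A minimum detection of 25% left 1274 genes, of which 9.18% were variable and 10.9% steady, and a minimum of 75% for pairs left 3 co-varying pairs. With the lower limit of 0.2, 41 pairs co-varied and 3 opposed, a setting added after the data were seen. Among genes that overlap no other gene of 1 CPM or more, also added, 7.14% were variable, 6.81% steady and 37 genes were found in at least 90% of cells. Of the 20 most abundant genes, 15 were the same when ranked per kb. No counted pair changed its sign. For the genes and pairs named by level, variation, rarity or pairing, no level moved by more than the SD over TH numbers, and 1.47% of CV ratios, 2.48% of correlations and 1.96% of detection rates did. Leaving out 1 TH number cannot move a mean over TH numbers by more than their SD. Those settings are part of these shares though they could not count as moved, so the shares say little about stability between TH numbers. Depth limits detection, so a gene at 0 may still be present below what these reads reach. The number of cells sets a further limit: at this depth, such a gene may have a read in up to 0.867% of cells.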

Other observations

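Beyond the named rules, 4 genes under 200 CPM were found in at least 90% of the cells of each TH number. They were Rps29, a protein of the small ribosomal subunit, with 101.2 CPM and a read in 95.4% of cells, and Gm10800, Gm10252 and R74862 with 39.5, 162.4 and 82.3 CPM and a read in 94.5%, 95.95% and 96.2%. Gm10252 overlaps the ferritin gene Ftl1 and R74862 overlaps the tetraspanin gene Cd81, so reads of these pairs cannot be told apart.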
